A study of Mus musculus with 6 samples.

Results

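The 9 genes described here, Fcgr3, Ms4a7, Clec4d, Adam8, Ctla2b, Smoc2, Asb9, Pogk and 4930550L24Rik, were bright in cultured mouse SSC and iSSC and dim in mSSC. They were chosen by their measured values from 18194 genes, each represented by 1 probe set. A gene was taken when its log2 signal was 9 or more on each of the 4 SSC and iSSC arrays and below 6 on both mSSC arrays. Those limits were met by 18 genes, of which 9 were left out because the rule excludes them by name: Ccl6, Ctss, Mpeg1, Tyrobp, Aldh1a1, Afp, Bnc1, Gfra1 and Glis3. Since the contrast with mSSC chose the genes, their levels in mSSC are a description and carry no test.

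Spermatogonial stem cells renew themselves in the testis and feed sperm production throughout life. Male ICR mice of 3 to 5 days of age were the source of the cultures, and no genetic change or drug is named for any group. SSC are unipotent germ-line stem cells, iSSC an intermediate state and mSSC a multipotent state, each measured on 2 Affymetrix arrays (6 in all). Clumps from passages 0 to 1 and 9 to 10 grew on mouse embryonic fibroblasts stopped from dividing with mitomycin, and colonies were picked by shape, so RNA of feeder cells and of testis somatic cells can be in each sample. The labels tie no array to a passage and do not say whether replicates were separate cultures or animals. The spread behind each p-value may thus be technical.

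Bright and dim are read here on the log2 scale of RMA, a method that removes background, gives all arrays 1 distribution and combines the probes that target a transcript into 1 value. A difference of 1 on this scale is a 2-fold change in signal. Over all probe sets the array medians ran from 5.83 to 5.93 and the lower quartiles from 4.23 to 4.38. A level below 6 is thus about the median of the array or less, and the table has no detection calls. Of the 9 genes 8 lay below the array median in mSSC replicate 1 and 9 in replicate 2, but only 2 and 1 lay below the lower quartile. Among the 18194 genes they stood between percentiles 8.63 and 34.8 of replicate 1 and between 15.0 and 35.4 of replicate 2. The label "silent" therefore goes further than these values, and the genes are called dim in mSSC. In bulk samples, fewer cells that make a transcript and less of it per cell cannot be told apart.

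All 7 markers of pluripotent cells were higher on both mSSC arrays than on the other 4, among them Nanog, with mean levels of 3.35 in SSC, 3.44 in iSSC and 12.01 in mSSC. Of 9 spermatogonium markers 7 were lower on both mSSC arrays than on the other 4, among them the helicase gene Ddx4, with means of 10.64, 10.62 and 8.01. The other 2, Sall4 and Etv5, were highest in mSSC, and Kit had means of 8.75, 7.87 and 9.97. Nanog and Ddx4 do not set iSSC apart from SSC, and no list held markers of the intermediate state. The 12 macrophage markers examined, Fcgr3 among them, had medians of 10.66 and 9.83 on the SSC arrays, 8.90 and 8.27 on the iSSC arrays and 4.86 and 4.62 on the mSSC arrays. Leaving out Fcgr3, whose mSSC level the rule fixed, all 11 others were lower on both mSSC arrays than on any other array, as were 20.6% of all genes. Both iSSC arrays lay below both SSC arrays for 9 of these 11, against 17.7% of all genes. The same held for 10 of 12 fibroblast, 6 of 10 Sertoli cell and 5 of 6 smooth muscle markers. It held for 1 of 9 spermatogonium markers and for 0 of the Leydig cell, endothelial and pluripotent cell markers. Over all 12 macrophage markers, Fcgr3 included, the summed log2 levels ran from 113.4 to 124.95 in SSC and from 93.7 to 101.2 in iSSC. In mSSC they ran from 62.8 to 63.9, and C1qb and Ptprc were below the lower quartile of both arrays. The 12 fibroblast markers had medians of 11.73 and 11.14 in SSC, 9.41 and 9.54 in iSSC, and 7.55 and 8.76 in mSSC, and none was below the lower quartile of an array.

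**Figure D1:**
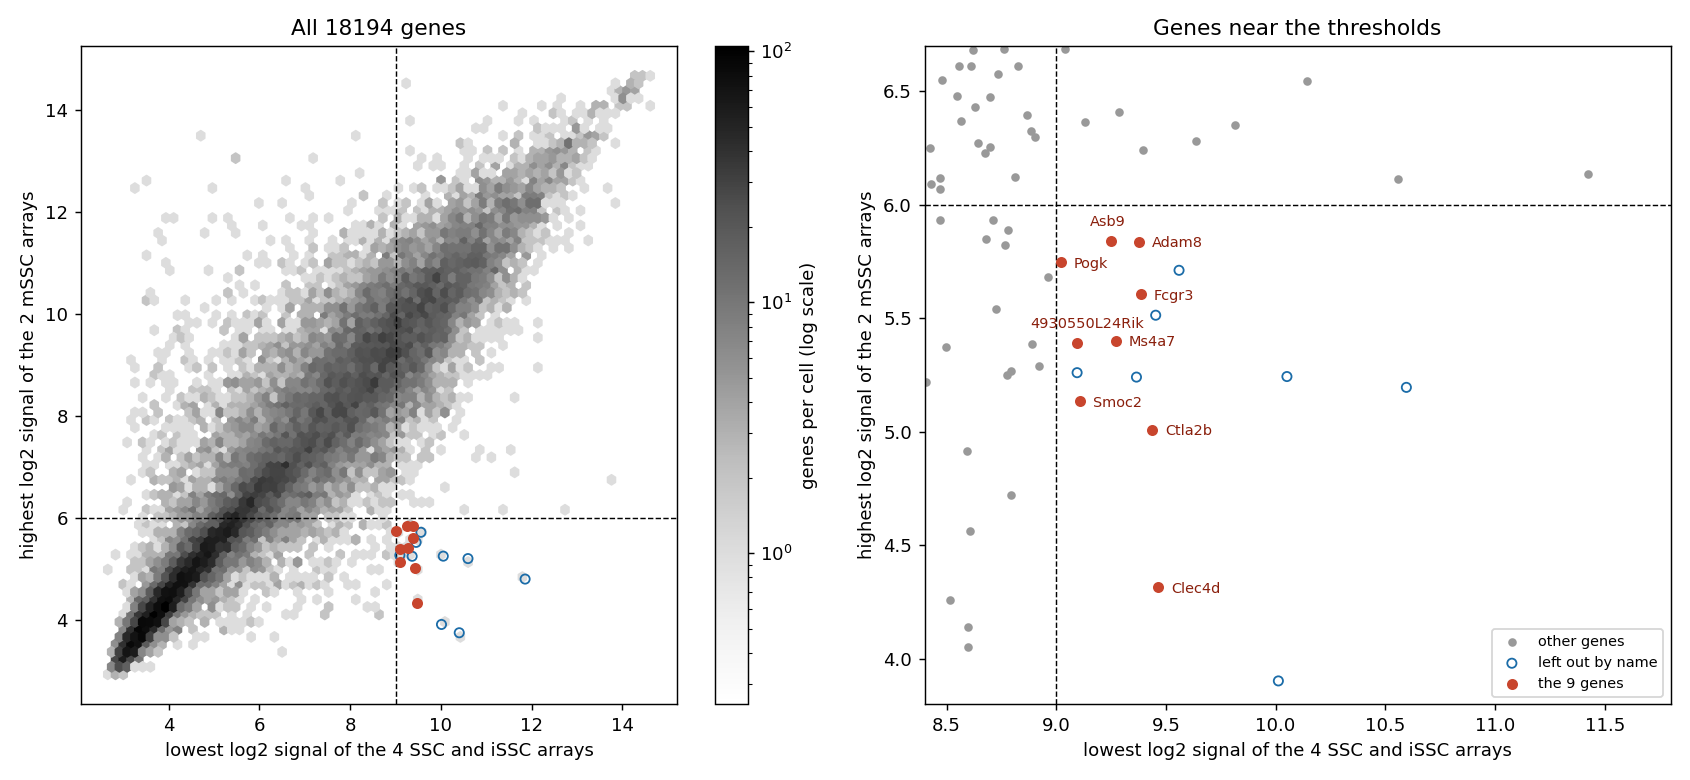
Left, the lowest log2 signal of the 4 SSC and iSSC arrays against the highest of the 2 mSSC arrays for 18194 genes (grey cells, darker for more genes), with the limits of 9 and 6 as dashed lines. Right, the same axes near the limits: the 9 genes (filled) have lowest values between 9.02 and 9.47, and the genes excluded by name are open circles.

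Genes with so wide a gap were few. At 9 or more on the 4 SSC and iSSC arrays were 4242 genes, and 3464 of them were also at 9 or more on both mSSC arrays. Below 6 on both mSSC arrays were 18 of the 4242, or 0.424%, and another 26 were below 6 on 1 of them. The smallest gap between a gene's lowest SSC or iSSC value and its highest mSSC value was 3.27 (Pogk) and the largest 5.15 (Clec4d). Just inside the limit of 9 were Pogk, with a lowest value of 9.02, 4930550L24Rik with 9.10 and Smoc2 with 9.11. Just outside it were Clec4n with 8.92, Mapk10 with 8.89, C1qa and Adgre1 each with 8.79 and Cd53 with 8.78. Just inside the limit of 6 were Asb9 and Adam8, each with a highest mSSC value of 5.84, and Pogk with 5.75. Wfdc17 with 6.14, Erap1 with 6.24, Rbbp6 with 6.28, Pmp22 with 6.35 and Sphk1 with 6.37 were just outside. All 9 genes had a value under 9.5 on at least 1 SSC or iSSC array, so limits of 9.5 and 5.5 would have left none of them.

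Fcgr3, Ms4a7 and Clec4d are surface proteins of macrophages and related leukocytes. Macrophages of the testis live among the seminiferous tubules, and their receptors for antibody and for microbial sugars and lipids lead to engulfment and to the release of cytokines. Of 151 measured genes in the macrophage and leukocyte list 16 were at 9 or more on the 4 SSC and iSSC arrays and 6 of those were below 6 on both mSSC arrays: these 3 and the excluded Ctss, Mpeg1 and Tyrobp. Tyrobp encodes an adaptor through which many leukocyte receptors signal.

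Fcgr3 encodes a receptor for the constant part of IgG that signals through a shared gamma chain when it meets immune complexes. Its log2 level was 11.56 and 10.61 on the SSC arrays, 10.18 and 9.39 on the iSSC arrays, and 4.94 and 5.61 on the mSSC arrays. The 3 groups did not overlap, with SSC highest, iSSC between and mSSC lowest. Other Fc gamma receptors on the array did not meet the limits. Fcgr4, its measured neighbour on chromosome 1, averaged 7.84 in SSC, 6.52 in iSSC and 4.53 in mSSC. Fcgr1 averaged 7.72, 6.23 and 4.80. Fcgr2b, the inhibitory receptor of the family, kept a mean of 7.93 in mSSC, against 9.67 in SSC and 9.07 in iSSC. Fcgr1, Fcgr3 and Fcgr4, which activate cells, were below 6 on both mSSC arrays, and Fcgr2b was not.

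Ms4a7 belongs to a family of proteins that span the membrane several times, to which the B cell antigen CD20 also belongs, and is made mainly by macrophages. It had log2 levels of 11.48 and 11.30 in SSC, 9.90 and 9.27 in iSSC, and 5.40 and 4.81 in mSSC. Here too the groups did not overlap. A second probe set of Ms4a7 was dim on every array, between 2.98 and 3.88, so the pattern rests on 1 probe set. Of the 17 Ms4a genes measured 10 were below 6 on all 6 arrays, and Ms4a7 alone met the limits. Ms4a6d averaged 10.44 in SSC, 8.82 in iSSC and 4.00 in mSSC, and Ms4a6b averaged 9.99, 7.67 and 4.04. Ms4a6c averaged 9.98, 7.70 and 6.81, so it stayed above 6 in mSSC. Ms4a4d had its highest mean in iSSC, at 10.02, against 8.63 in SSC and 6.05 in mSSC, although its SSC arrays were apart, at 9.36 and 7.90.

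Clec4d is a C-type lectin receptor that binds mycobacterial glycolipid and works with its relative Clec4e, also known as Mincle. Its values were 10.93 and 10.02 in SSC, 9.47 and 9.48 in iSSC, and 4.12 and 4.31 in mSSC. This was the widest gap among the 9 genes, and its mSSC signal lay near the lower quartile of the arrays. The probe set is of a kind (its name ends in s_at) that can match more than 1 transcript, so signal from a relative cannot be told apart. Clec4n and Clec4e, the measured genes on either side of it on chromosome 6, were also dim in mSSC. Clec4n had 10.42 and 8.92 in SSC, 10.36 and 9.32 in iSSC, and 5.29 and 5.14 in mSSC. Clec4e was uneven in SSC, at 6.99 and 4.92, and had 7.33 and 7.95 in iSSC and 4.01 and 4.58 in mSSC. All 8 Clec4 genes measured were below 6 on both mSSC arrays, and 4 of them were below 6 on every array.

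**Figure D2:**
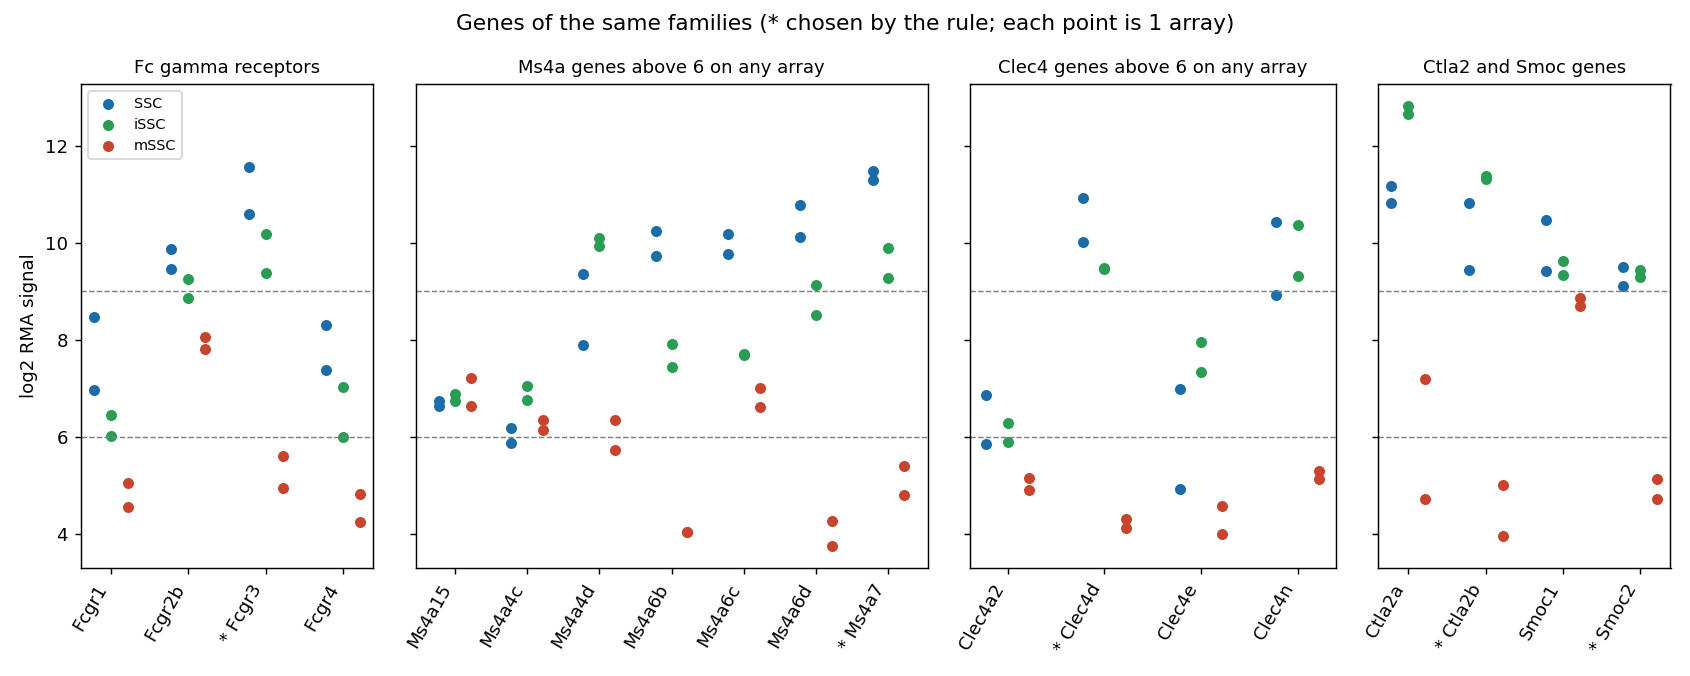
Log2 RMA signal of genes from the families of Fcgr3, Ms4a7, Clec4d, Ctla2b and Smoc2, 1 point per array, with SSC in blue, iSSC in green and mSSC in red and the limits of 9 and 6 as dashed lines. Stars mark the genes that the rule chose. Ms4a6b, Ms4a6c and Ms4a6d are in the order SSC, iSSC, mSSC as Ms4a7 is, while Ms4a6c (mean 6.81 in mSSC), Fcgr2b (7.93) and Smoc1 (8.79) stay above 6.

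Adam8 and Ctla2b bear on proteolysis. Adam8 is a metalloprotease and disintegrin of the cell surface that sheds receptors and adhesion molecules and is known from leukocytes. It was at 11.10 and 10.22 on the SSC arrays, 9.47 and 9.38 on the iSSC arrays, and 4.92 and 5.84 on the mSSC arrays. SSC lay above iSSC, and mSSC lay far below both. Among the 23 Adam genes measured Adam9, Adam10 and Adam17 were also at 9 or more on the 4 SSC and iSSC arrays. They averaged 9.75, 9.30 and 9.15 in mSSC, so Adam8 alone of the 4 was dim there.

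Ctla2b encodes a small protein related to the inhibitory propeptide of cathepsin L-like proteases. Its log2 level was 10.82 and 9.44 in SSC, 11.31 and 11.39 in iSSC, and 3.96 and 5.01 in mSSC. Unlike Fcgr3, Ms4a7 and Clec4d, it was highest in iSSC, with both iSSC arrays above both SSC arrays. Its close relative Ctla2a, on the same stretch of chromosome 13, had the same order: 11.18 and 10.83 in SSC, 12.65 and 12.83 in iSSC, and 4.71 and 7.19 in mSSC. Ctla2a missed the limits through mSSC replicate 2. The coding sequences of this pair are alike, and cross-hybridisation between their probe sets was not tested. Tpbpb, the measured gene that lies between them, stayed between 4.23 and 4.85 on all arrays.

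Smoc2 is a secreted calcium-binding protein of the matrix, related to Sparc. It was level across the first 2 states: 9.11 and 9.51 in SSC, 9.30 and 9.43 in iSSC, and 4.72 and 5.14 in mSSC. SSC and iSSC overlapped. A second Smoc2 probe set gave 6.98 and 9.05 in SSC, 8.61 and 8.96 in iSSC, and 4.15 and 4.69 in mSSC, so it too was dim in mSSC but differed between the SSC arrays. Smoc1, the other gene of the family, averaged 9.95, 9.48 and 8.79. Thbs2, a thrombospondin gene next to Smoc2 on chromosome 17, had 5.81 and 8.91 on the mSSC arrays against 10.07 to 10.47 on the other 4. Of 106 measured genes in the list of extracellular matrix and its enzymes, 34 were at 9 or more on the 4 SSC and iSSC arrays. Smoc2 was the only gene of those 34 below 6 on both mSSC arrays, and 16 of them were at 9 or more on all 6. In mSSC replicate 1 minus replicate 2, Smoc2 was at -0.41. The fibroblast markers were also dimmer in replicate 1 by their median, and their part in the level of Smoc2 was not tested.

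Asb9, Pogk and 4930550L24Rik, like Adam8 and Ctla2b above, belong to none of the gene lists used here, so 5 of the 9 genes are in no list. Asb9 has ankyrin repeats and a SOCS box, which recruits targets to a ubiquitin ligase, and it binds creatine kinase. It had 9.42 and 9.39 in SSC, 9.25 and 9.25 in iSSC, and 5.84 and 5.18 in mSSC. Among 18 Asb genes measured, Asb8 was the only other one at 9 or more on the 4 arrays, and it stayed at 9 or more in mSSC. Asb11, next to Asb9 on the X chromosome, lay between 4.16 and 4.74 throughout.

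Pogk encodes a nuclear protein with a KRAB domain and a transposase-like domain. Its values were 9.26 and 9.02 in SSC, 9.27 and 9.03 in iSSC, and 5.75 and 5.15 in mSSC. SSC and iSSC overlapped, with replicate 1 slightly above replicate 2 in both. A second Pogk probe set stayed between 6.35 and 6.60 in SSC and iSSC and was 5.78 and 5.67 in mSSC, a far smaller difference. The chosen probe set, like that of Clec4d, is of the s_at kind, and the size of the change depends on the probe set.

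4930550L24Rik lies on the X chromosome, and RefSeq lists a melanoma antigen (MAGE) family name as its synonym. MAGE genes are typically active in germ cells. It had 9.10 and 9.81 in SSC, 10.86 and 10.08 in iSSC, and 4.66 and 5.39 in mSSC. Like Ctla2b it was higher on both iSSC arrays than on both SSC arrays. Its measured neighbours Gpr101 and Fgf13 did not share the pattern, with Gpr101 between 2.95 and 3.29 and Fgf13 between 6.68 and 7.88.

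**Figure D3:**
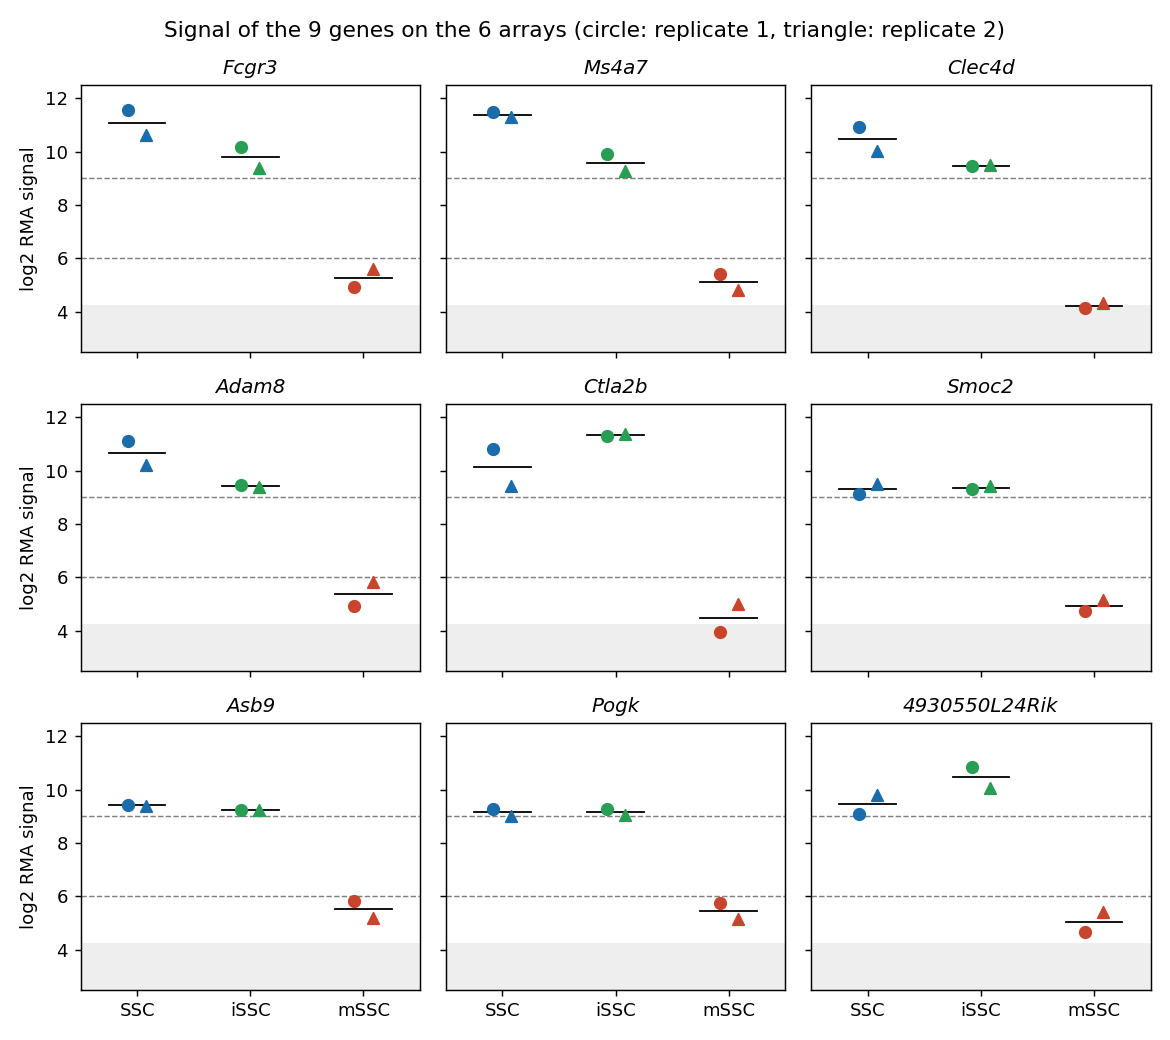
Log2 RMA signal of each of the 9 genes on the 6 arrays, with circles for replicate 1, triangles for replicate 2, black bars for group means, dashed lines at 9 and 6 and a grey band below the lowest array quartile (4.23). In every panel both mSSC points lie below 6; Fcgr3, Ms4a7, Clec4d, Adam8 and Asb9 have both iSSC arrays below both SSC arrays.

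The difference between iSSC and SSC was not used to choose the genes, so it was tested, by limma over all 18194 genes. The rule does ask for 9 or more in both groups and so admits no gene that is dim in either. Fcgr3, Ms4a7, Clec4d and Adam8 had lower estimates in iSSC, and Ctla2b and 4930550L24Rik had higher ones. Asb9, Pogk and Smoc2 were within 0.16 of no difference. Ms4a7 passed the test, with iSSC minus SSC at -1.80 ± 0.31 (SE, n = 2 arrays per group) and an adjusted p of 0.048. It was the only one of the 9 genes called lower, and 0 were called higher. Over all genes 1.87% were called lower and 0.225% higher, and among genes at 9 or more on the 4 arrays 0.919% were called in either direction. In either direction 2.09% of all genes were called. At an unadjusted p under 0.05 in limma, 4 of the 9 were lower and 1 was higher. Together these were 5 of the 9, against 3090 of all 18194 genes, whose split by direction was not counted.

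The call of Ms4a7 was marginal. Over 15 other settings its adjusted p ranged from 0.041 to 0.32. Distinct fits kept it under 0.05 only with a replicate term, a variance trend or a dim-gene filter, or on the 4 SSC and iSSC arrays alone. Leaving out either mSSC array repeated the fit on those 4 arrays, so it was no separate setting. When the first SSC array was left out, limma put the difference at -1.71 with an adjusted p of 0.16, and leaving out the second gave -1.90 with 0.072. When the first iSSC array was left out it was -2.12 with an adjusted p of 0.27, and leaving out the second gave -1.49 with 0.26. Each of these 4 fits left a single array in a group, so a lost call cannot be laid to the array left out. The difference itself stayed between -2.12 and -1.49.

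Fcgr3 was at -1.30 ± 0.44 in iSSC against SSC (limma adjusted p = 0.22), with a 95% interval from -2.36 to -0.24. Adam8 was at -1.24 ± 0.41 (limma adjusted p = 0.21, interval -2.21 to -0.26). Clec4d was at -1.001 ± 0.32 (limma adjusted p = 0.20, interval -1.78 to -0.22). It passed without SSC replicate 2, at -1.46 (limma adjusted p = 0.048). These 4 genes and Asb9 had both iSSC arrays below both SSC arrays, as did 17.7% of all genes and 17.5% of those at 9 or more on the 4 arrays. SSC replicate 1 held more of the signal of Fcgr3, Ms4a7, Clec4d and Adam8 than replicate 2. Each of the 12 macrophage markers, Fcgr3 among them, was higher in replicate 1 as well. The share of all genes higher in that array was not counted. Of those markers 5 were called lower in iSSC and 0 higher by limma, against 1.87% and 0.225% of all genes. Their part in the lower iSSC values of Fcgr3, Ms4a7, Clec4d and Adam8 was not tested.

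Ctla2b was at 1.22 ± 0.52 in iSSC against SSC (limma adjusted p = 0.31), with an interval from -0.04 to 2.48, and its SSC arrays differed by 1.38. 4930550L24Rik was at 1.01 ± 0.41 (limma adjusted p = 0.28, interval 0.03 to 2.00). In both genes each iSSC array lay above each SSC array, as in 32.3% of all genes and 36.8% of those at 9 or more on the 4 arrays. Asb9 was at -0.16 ± 0.27 (limma adjusted p = 0.83, interval -0.80 to 0.48). Smoc2 was at 0.06 ± 0.25 (adjusted p = 0.95) and Pogk at 0.01 ± 0.27 (adjusted p = 0.99). Their intervals, -0.56 to 0.67 and -0.65 to 0.67, leave room for changes of either sign of about that size. Across the 9 genes the median difference was -0.16, against 0.10 over all genes and 0.13 over genes at 9 or more on the 4 arrays.

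**Figure D4:**
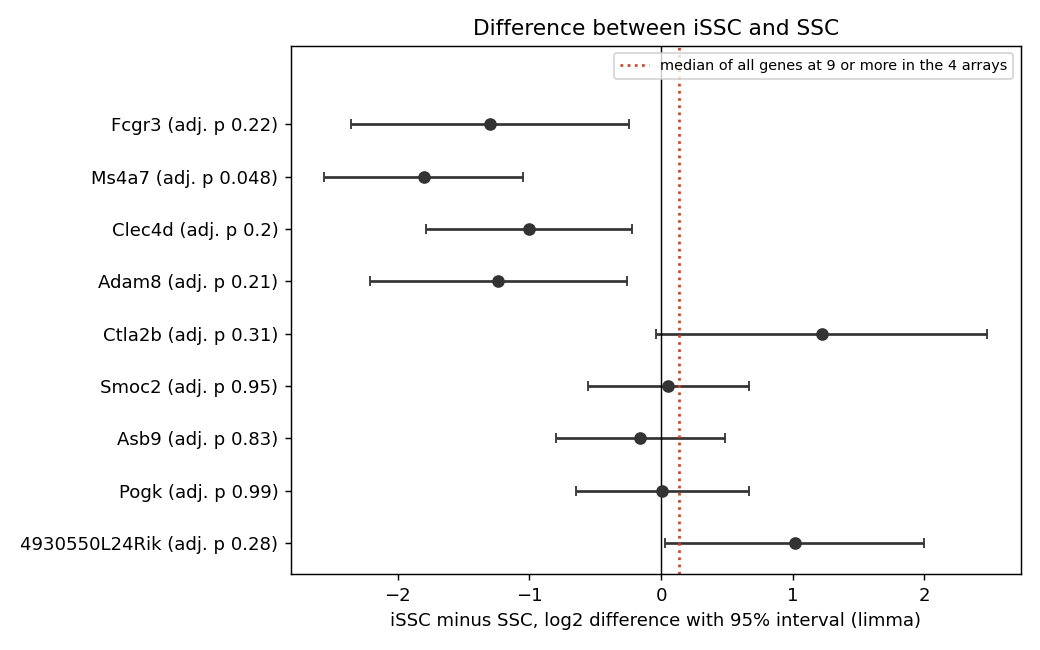
The log2 difference iSSC minus SSC of the 9 genes with its 95% interval from limma, with adjusted p over all genes beside each name and a dotted line at the median of genes at 9 or more on the 4 arrays (0.13). Ms4a7 at -1.80 is the only one with an adjusted p under 0.05.

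Between the mSSC arrays, 6 of the 9 genes were lower in replicate 1 and 3 were higher. Replicate 1 minus replicate 2 was largest in size for Ctla2b, at -1.05, followed by Adam8 at -0.92, and smallest for Clec4d, at -0.19. The 3 that were higher in replicate 1 were Asb9, Pogk and Ms4a7.

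The genes were spread over the genome. They lay on 7 chromosomes, and Asb9 and 4930550L24Rik were on the X chromosome, which held 3.42% of placed genes. Of the 18 measured genes next to one of them, none was another of the 9. Of the 18, 2 were at 9 or more on the 4 SSC and iSSC arrays, as were 4242 of all 18194 genes. The 2 were Tubgcp2 beside Adam8 and Thbs2 beside Smoc2, and neither was below 6 on both mSSC arrays. Both genes beside Clec4d, Clec4n and Clec4e, were below 6 on both mSSC arrays, and 9 of the 18 neighbours were, 5 of them on all 6 arrays. The share of all genes below 6 on both mSSC arrays was not counted.

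Promoter sequence was not a value that the rule used, although the rule leaves out genes that are bright in all groups. Sequences from 250 bases before to 50 after the start were found in RefSeq (GRCm38.p6) for 8 of the 9 genes, all but Smoc2, and the first listed start was taken. CpG dinucleotides are the sites of DNA methylation in mammals, and promoters of widely expressed genes are usually rich in them. Fewer than 10 CpG in the 300 bases, a limit chosen after the values were seen, were found in 7 of the 8 promoters. That held for 32.8% of 14369 genes with a promoter, and for 8.49% of the 3544 of these at 9 or more on the 4 arrays. Clec4d had 0 CpG, Asb9 1, Ctla2b 3, Fcgr3 4, Ms4a7 and Adam8 6 each, and 4930550L24Rik 9. Pogk differed, with 32, against a median of 17 over all genes. Of the 4242 genes at 9 or more on the 4 arrays, 3464 were also at 9 or more on both mSSC arrays. Genes bright in only some of the groups were not compared separately. No array measured methylation, and the comparison has no test.

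Printed are the promoters of Fcgr3, Ms4a7 and Clec4d, which are CpG-poor, and that of Pogk, the exception. Asb9 with 1 CpG and Ctla2b with 3 had fewer than Fcgr3 and Ms4a7 and are not printed. The 4 printed promoters are also the 4 of the 8 that hold the motif GAGGAA, so they do not stand for all 8. Each runs 5′ to 3′ on the strand of its gene, and capitals mark every match, on either strand, to one of the motifs searched.
Fcgr3, chr1:171059354-171059653, minus strand: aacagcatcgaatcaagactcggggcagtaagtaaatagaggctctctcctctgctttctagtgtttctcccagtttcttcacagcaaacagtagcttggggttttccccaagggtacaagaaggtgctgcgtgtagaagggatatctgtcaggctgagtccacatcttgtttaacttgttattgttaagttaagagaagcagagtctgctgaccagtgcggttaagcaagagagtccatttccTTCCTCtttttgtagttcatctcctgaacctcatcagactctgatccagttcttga
Ms4a7, chr19:11336097-11336396, minus strand: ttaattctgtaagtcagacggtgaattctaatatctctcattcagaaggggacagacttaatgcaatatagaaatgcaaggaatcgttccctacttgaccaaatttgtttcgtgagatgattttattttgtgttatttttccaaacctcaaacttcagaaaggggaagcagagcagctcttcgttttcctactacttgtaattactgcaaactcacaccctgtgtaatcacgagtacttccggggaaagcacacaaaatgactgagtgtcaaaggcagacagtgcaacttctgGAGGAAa
Clec4d, chr6:123261857-123262156, plus strand: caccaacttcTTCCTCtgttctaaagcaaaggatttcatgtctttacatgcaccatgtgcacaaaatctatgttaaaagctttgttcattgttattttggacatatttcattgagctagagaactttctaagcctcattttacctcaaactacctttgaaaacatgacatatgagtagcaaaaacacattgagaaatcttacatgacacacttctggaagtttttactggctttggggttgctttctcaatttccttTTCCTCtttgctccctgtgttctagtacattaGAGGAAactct
Pogk, chr1:166409779-166410078, minus strand: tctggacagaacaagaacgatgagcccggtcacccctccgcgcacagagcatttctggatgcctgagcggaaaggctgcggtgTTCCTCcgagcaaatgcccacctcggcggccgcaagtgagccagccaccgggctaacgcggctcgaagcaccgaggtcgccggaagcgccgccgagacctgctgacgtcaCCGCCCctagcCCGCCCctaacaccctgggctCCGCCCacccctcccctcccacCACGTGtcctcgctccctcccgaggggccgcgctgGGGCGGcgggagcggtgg

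Several short motifs were searched on both strands. GAGGAA is the core of sites bound by the myeloid factor Spi1 and was added after the sequences were seen, and the longer GAGGAAGT contains it. Gata factors bind AGATAA and the AP-1 factors bind TGANTCA. The E-box searched was CACGTG, which reads alike on both strands. Sites of general promoters were the TATA box (TATAAA), the Sp1 site (GGGCGG) and the CCAAT box. GAGGAA was found in Fcgr3, Ms4a7, Clec4d and Pogk, or 4 of 8 promoters, and in 27.0% of all promoters. Clec4d held it 3 times. The capitals in Fcgr3 and Ms4a7 are 1 such match each, on the reverse strand in Fcgr3. In Pogk they mark 4 matches to GGGCGG, 1 to CACGTG and 1 to GAGGAA. The Sp1 motif GGGCGG was found in 2 of 8, Adam8 and Pogk, against 54.1% of all promoters and 70.7% of genes at 9 or more on the 4 arrays. CCAAT was found in Adam8 and Asb9 (38.2% of all), CACGTG in Pogk only (9.04%) and TGANTCA in Ctla2b only (6.29%). GAGGAAGT, AGATAA and TATAAA were in none of the 8, against 2.91%, 8.11% and 9.85% of all. A match means only that these letters stand in the window, and binding was not measured.

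**Figure D5:**
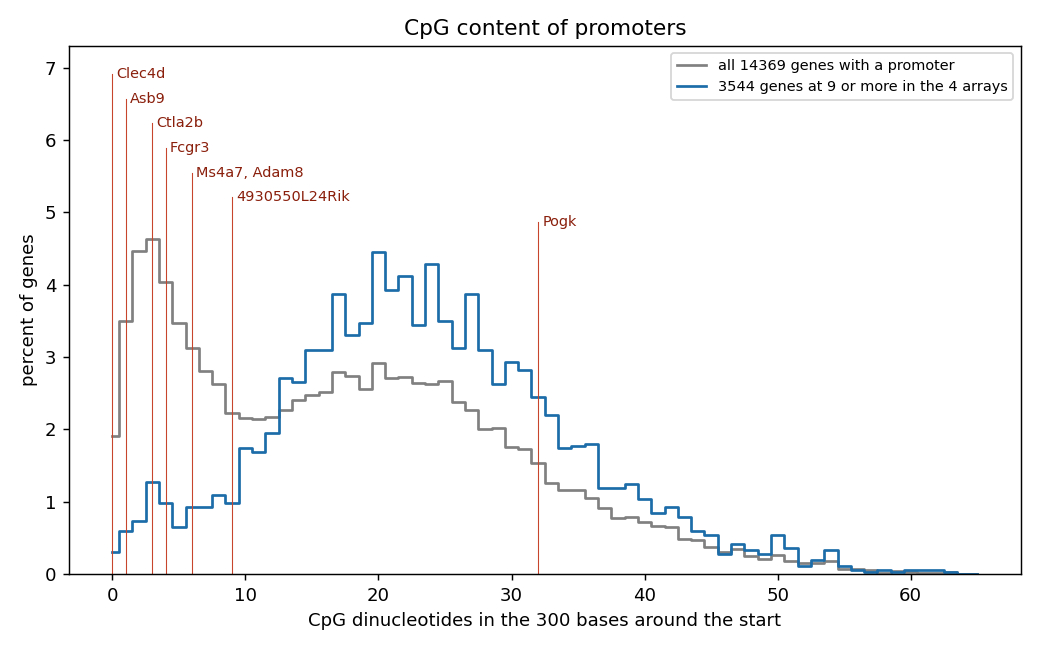
Percent of genes by the number of CpG dinucleotides in the 300 bases around the start, for 14369 genes with a promoter (grey) and the 3544 of them at 9 or more on the 4 SSC and iSSC arrays (blue). Red lines mark the 8 genes: 7 have fewer than 10 and Pogk has 32.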

How the data were processed

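RNA of 2 SSC, 2 iSSC and 2 mSSC samples was measured on 1 Affymetrix array each. Per the labels' protocols, total RNA was extracted with Trizol and amplified and labelled with NuGEN kits. The authors deposited log2 signals, made with RMA per the submitters' processing notes, with no version given. No further normalization or filter was applied. The array has 45101 probe sets, of which 34958 carry 1 gene symbol, 932 several symbols and 9211 none in the probe table. By gene identifier 34754 matched RefSeq (GRCm38.p6), and 0 symbols changed. For the 9012 genes with more than 1 probe set, the probe set brightest on average was kept, giving 18194 genes.

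iSSC was compared with SSC by limma 3.58.1 in R 4.3.3, with a group means model over 6 arrays, moderated variances and 2-sided p-values. A gene was called when its p-value, adjusted by Benjamini and Hochberg over the 18194 genes, was under 0.05. The fit was tested on simulated data. With 2 arrays a group, their number limits precision. The 9 genes and the gene lists were chosen with earlier results of these data known. Genes were named as members, as the 5 nearest to each limit, as neighbours of members, or from a fixed panel. Family members outside these were chosen after their values were seen. Tried besides were a replicate term, fewer arrays, other variances, a dim-gene filter, other scalings, probe set choices and limits, and leaving out each array. One probe set setting was chosen after seeing the data. Protein sequences were not used here.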

Additional observations from a re-analysis of the deposited data

How the results depend on the processing

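How many genes the rule found depended on its limits. It found 0 at 9.5 and 5.5, so nothing could be tested there, and 36 at 8.5 and 6.5, which hold the same 9 and 27 more. Centring arrays on their medians or quantile normalization left 8, without Pogk. Averaging the probe sets of a gene left 7, of which 6 were shared, without Ms4a7, Pogk and Smoc2. The probe set of largest variance gave 11 and any probe set, a setting chosen after seeing the data, gave 12, both with all 9.

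In limma the count of genes called lower in iSSC was 0 with the unmoderated test, arrays centred on the median, quantile normalization, the mean of probe sets and the probe set of largest variance, and 4 at the looser limits. Leaving out 1 array in turn gave 0 to 1 lower and 0 to 0 higher, and a median difference from -0.17 to -0.15. Pogk then ranged from -0.11 to 0.13 and Smoc2 from -0.15 to 0.26, so their signs were not fixed. The other 7 genes kept their sign. With the replicate number as a block the count stayed at 1, with Ms4a7 at an adjusted p of 0.0499. Same-numbered arrays deviated together with r of 0.12 (SSC and iSSC), 0.07 (SSC and mSSC) and 0.17 (iSSC and mSSC) across genes, so the numbers were not taken to pair the samples.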

Other observations

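Some genes that just missed the limits are in the macrophage and leukocyte list, which holds 151 of all 18194 genes. Of the 27 genes added at limits of 8.5 and 6.5 it held 6: Adgre1, Cd53, Clec4n, Csf1r, Ms4a6d and Wfdc17. The 27 were chosen by the same contrast with mSSC, and the list was made with earlier results known. The count is therefore a description and carries no test. The complement genes C1qa and C1qb were added as well, and 15 of the 27 were in no list. By limma 3 of the 27 were called lower in iSSC than in SSC and 0 higher, against 1.87% and 0.225% of all genes. All 3 are among the 12 macrophage markers counted above. C1qa was at -2.95 ± 0.43 (adjusted p = 0.034), C1qb at -3.21 ± 0.35 (adjusted p = 0.028) and Csf1r, the receptor for the macrophage growth factor, at -2.53 ± 0.37 (adjusted p = 0.035), each with n = 2 arrays per group.

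Probe sets that did not stand for a gene also met the limits. Of 9211 probe sets with no symbol 2 did, and of 932 with several symbols 1 did. Among probe sets with 1 symbol, Pdxdc1 had 1 probe set at 10.36 to 10.69 in SSC and iSSC and at 5.65 and 5.81 in mSSC, while the probe set with its highest mean stood at 9.99 and 9.74 in mSSC. Mapk10 had 1 at 9.43 to 10.26 in SSC and iSSC and at 4.80 and 3.56 in mSSC. Lyz1 had 1 at 12.81 to 13.64 in SSC and iSSC and at 5.13 and 5.93 in mSSC. These Mapk10 and Lyz1 probe sets are of a kind (names end in x_at) that can match other transcripts. Signal from a relative therefore cannot be told apart. The Lyz1 probe set not of this kind was dim on every array, between 3.69 and 4.29, so a change in Lyz1 itself is not shown. For Mapk10 the probe set with its highest mean, not of this kind, was at 5.39 and 4.61 in mSSC.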
